A study of Mus musculus with 2 samples.

Results

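The collagen genes described here are those whose symbol in the deposited gene list is Col, a number, the letter a and a number, and that had at least 50 UMIs over both libraries in nuclei with at least 500 detected genes and at most 5% mitochondrial UMIs. A UMI (unique molecular identifier) counts 1 captured RNA molecule. The rule kept 42 of 44 such symbols among 33696 genes. Col6a5 with 28 UMIs and Col6a4 with 7 UMIs lay under the minimum, and the kept genes nearest to it were Col5a3 with 96 UMIs and Col28a1 with 102 UMIs. Col2a1 had the most UMIs (34814), followed by Col25a1 (26568), Col11a1 (25422), Col1a2 (22118) and Col9a1 (21684). The set holds 11 fibril-forming chains, 9 fibril-associated chains, 6 type IV chains of basement membranes, 3 short-chain network chains, 7 chains of beaded filaments, anchoring fibrils and related types, 4 membrane-spanning chains and 2 multiplexins.

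Single-nucleus RNA sequencing was done on 1 library per group, both from mouse cochleae at postnatal day 7 after tamoxifen at postnatal day 1. The library called Serpine2 cOE came from 20 pooled cochleae of Lgr5EGFP-CreER/+ mice that carried Serpine2loxp/loxp. The control library came from 19 pooled cochleae of mice with Serpine2loxp/loxp and no Cre driver. Cre is driven by the Lgr5 promoter, which in the young cochlea is active mainly in supporting cells, and the makeup of the Serpine2 allele is not given in the sources used here. The driver allele and the Serpine2 state differ together between the libraries and cannot be told apart, and with 1 pooled library per group no difference between them has a replicate check. Serpine2 itself, a secreted serine protease inhibitor, stood at 231 CPM (UMIs of a gene per 1000000 UMIs) in supporting cell-like nuclei of the cOE library (300 UMIs) and at 178 CPM in the control (123 UMIs), a log2 ratio of 0.38 with a 95% counting interval of 0.07 to 0.69. Over all kept nuclei its levels were 86.2 and 89.5 CPM (log2 ratio -0.05, interval -0.13 to 0.03), and in hair cell-like nuclei 54.9 and 59.0 CPM (-0.10, -0.35 to 0.14).

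After filters, 9777 cOE nuclei with a median of 2400 UMIs and 8250 control nuclei with a median of 2247.5 UMIs were kept. The libraries shared 27 barcodes, 16 of them among kept nuclei. Clustering without the collagen genes gave 25 clusters, 23 of them with at least 50 nuclei, of which 15 could be named from marker genes and 8 stayed unnamed. The labels name hair cells and supporting cells of the "Basement membranes of cochlea". Hair cell-like nuclei, however, made up 4.74% of the cOE and 4.56% of the control nuclei, and supporting cell-like nuclei 2.53% and 1.56%, whereas mesenchymal cell-like nuclei made up 31.8% and 32.0%. Cluster 8, of low depth, held 64 cOE and 730 control nuclei, and the shares of clusters 3, 12 and 13 were 2.15, 1.88 and 3.13 times as large in the cOE library as in the control.

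Collagens are extracellular proteins built from 3 chains wound into a triple helix, which needs glycine, the smallest amino acid, at regular steps with 2 other residues in between. Fibril-forming collagens make the cables of connective tissue and, in the cochlea, the radial fibrils of the tectorial membrane, where types II, IX and XI lie together. Type IV collagens make the sheet of the basement membrane; the chains of Col4a1 and Col4a2 form 1 network and those of Col4a3, Col4a4 and Col4a5 another, and loss of the latter causes Alport syndrome, a disease of kidney and hearing.

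The classes differ in how long the glycine repeat runs without a break, which can be read in the coding sequence, since all glycine codons start with GG. Counting codons that start with GG and have 2 other codons in between, the longest unbroken run had 216 to 344 repeats in the 11 fibril-forming genes (median 338), 39 to 66 in the 6 type IV genes (median 43.5), 30 in each multiplexin and 40 to 56 in the membrane-spanning genes. Runs of 113 repeats were found in Col9a1, Col9a2, Col9a3 and Col22a1. One stretch of 90 bases is shown for each of 4 genes on which the results turn, 5′ to 3′ on the coding strand of the canonical transcript in GENCODE M39, with glycine codons in capitals. The genes lie on GRCm39 at chr15:97873483-97902689 (Col2a1, minus strand, codons 201 to 230), chr1:24216691-24291765 (Col9a1, plus strand, codons 418 to 447), chr1:82564642-82699780 (Col4a3, plus strand, codons 145 to 174) and chr3:129925150-130393532 (Col25a1, plus strand, codons 634 to 663).
Col2a1: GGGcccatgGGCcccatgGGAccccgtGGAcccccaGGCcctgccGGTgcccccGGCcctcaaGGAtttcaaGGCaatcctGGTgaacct
Col9a1: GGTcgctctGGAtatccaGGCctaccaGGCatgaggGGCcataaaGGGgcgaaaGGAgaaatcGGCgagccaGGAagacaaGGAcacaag
Col4a3: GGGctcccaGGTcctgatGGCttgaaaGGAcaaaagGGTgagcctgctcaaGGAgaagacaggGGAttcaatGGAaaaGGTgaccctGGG
Col25a1: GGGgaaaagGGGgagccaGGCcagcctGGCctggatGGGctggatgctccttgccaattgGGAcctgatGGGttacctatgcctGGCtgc
The stretches of Col2a1 and Col9a1 start with the longest run, and a capital codon opens every triplet of codons. Those of Col4a3 and Col25a1 were placed at the end of the longest run, so that its break shows. Their longest runs had 39 and 40 repeats, so stretches of 90 bases within them would show no break. Each type IV gene held 22 to 27 separate stretches of at least 5 repeats, and Col9a1 and Col25a1 held 6 each.

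Levels of a gene are given as its CPM within the same cluster or class, first for the cOE and then for the control library, with 95% Poisson intervals that cover counting error only. They are compared for the same gene across clusters, not between genes, because capture at the 3′ end of nuclear RNA differs from gene to gene. Free RNA of the suspension adds UMIs to every droplet, so the level in macrophage-like nuclei (119 and 153 nuclei, median 1529 and 1535 UMIs) is given as a background. That level is a reference only, since some clusters lay below it and the share of free RNA in each cluster was not measured. Fewer nuclei of a type and less RNA per nucleus cannot be told apart in sums over all nuclei.

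**Figure D1:**
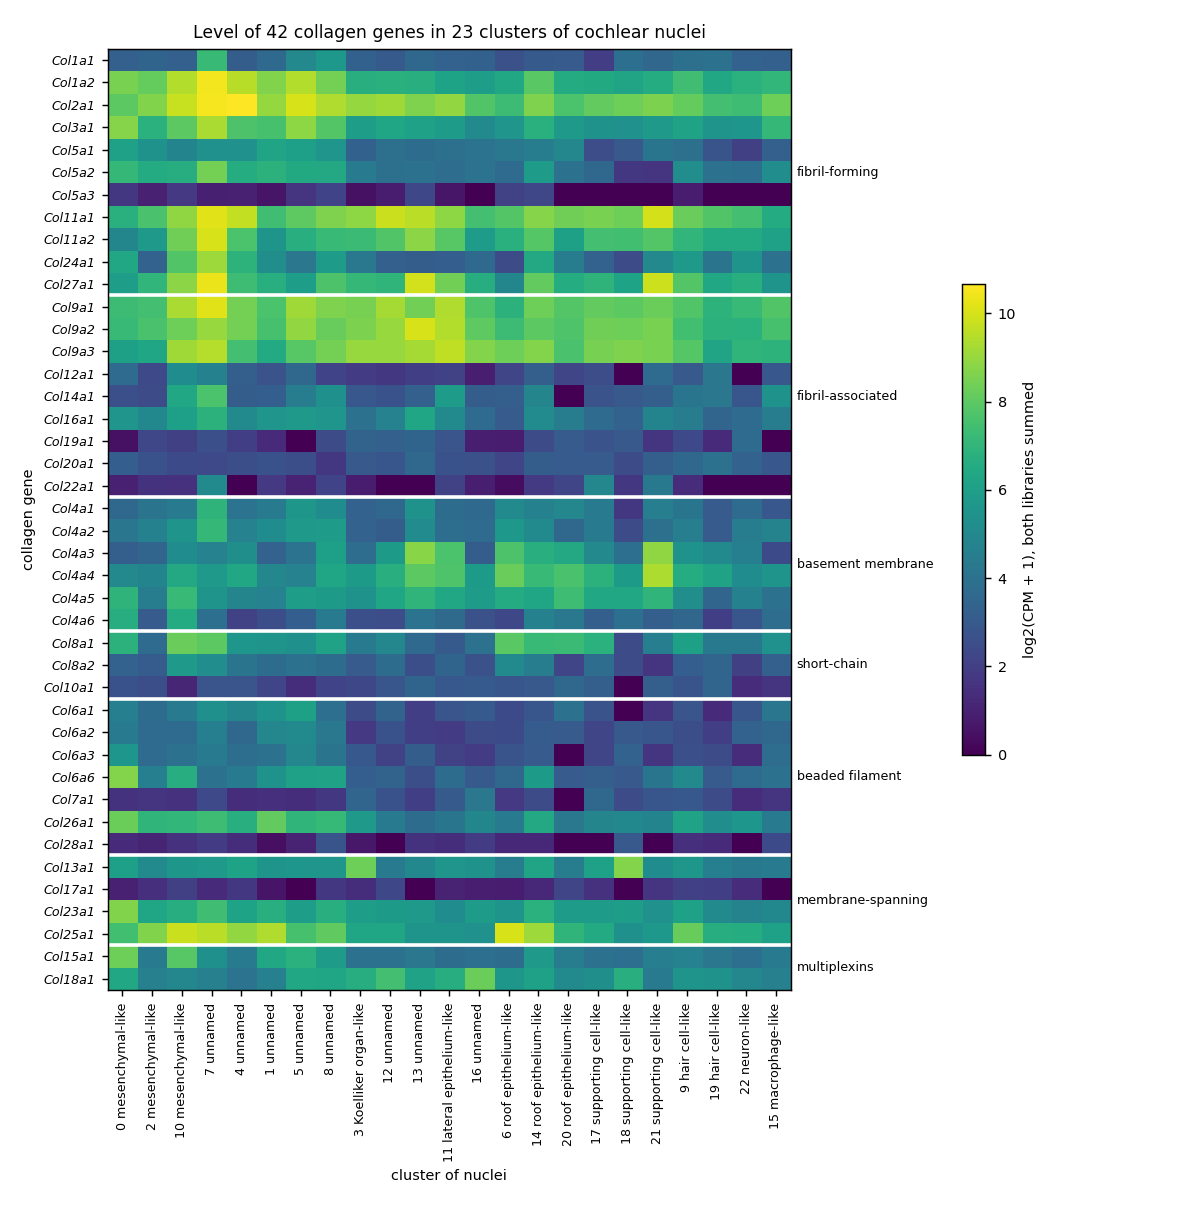
Level of the 42 collagen genes (rows, grouped by structural class) in the 23 clusters with at least 50 nuclei (columns), as log2(CPM + 1) over both libraries. Cluster 7 held the highest level of 14 genes and cluster 0 that of 6 genes.

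Collagen genes were unevenly spread over the cell types. Cluster 7, led by Hhip, Gria1, Dio2 and Runx2, had the highest level of 14 of the 42 genes: 8 fibril-forming genes, 4 fibril-associated genes, Col4a1 and Col4a2. The cluster had 474 and 340 nuclei and stayed unnamed, since it had 4 mesenchymal and 4 osteoblast or chondrocyte markers. The mesenchymal cell-like cluster 0, led by Unc13c, Aldh1a2, Tafa4 and Tnxb, had the highest level of 6 genes (Col4a6, Col6a3, Col6a6, Col15a1, Col23a1 and Col26a1). The cluster of the highest level was the same in both libraries for 29 of the 42 genes. In both libraries, 23 of the 42 genes (54.8%) stood at least 4-fold higher in 1 cluster than in all other nuclei, against 24.1% of the 18240 genes with enough UMIs. The 23 included Col28a1 (4.30-fold in cluster 18), although that cluster held 3.61% of its 33 and 50 UMIs. The median of the best fold in the lower library was 4.05 for the collagen genes and 2.32 for all genes. The largest values were 12.2-fold for Col14a1 in cluster 7, 11.9-fold for Col6a6 in cluster 0, 11.1-fold for Col1a1 in cluster 7 and 10.8-fold for Col24a1 in cluster 7.

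Among fibril-forming chains, Col1a2 encodes the second chain of type I collagen, the main fibril of bone and skin. Col1a2 stood at 1497 CPM (interval 1429 to 1567) and 1289 CPM (1218 to 1364) in cluster 7, at 727 and 747 CPM in the unnamed cluster 4 and at 695 and 679 CPM in the mesenchymal cell-like cluster 10. Its lowest levels were 61.7 and 63.5 CPM in the unnamed cluster 16, below the 139 and 130 CPM of macrophage-like nuclei. In nuclei thinned to 1000 UMIs, 68.5% and 63.5% of cluster 7 and 15.1% and 12.7% of macrophage-like nuclei had a Col1a2 UMI. Both libraries therefore placed Col1a2 highest in cluster 7 by a wide margin over background. Col1a1, the partner chain, stood at 103 CPM (126 UMIs, interval 85.8 to 123) and 207 CPM (196 UMIs, 179 to 239) in cluster 7, which held 33.8% of its UMIs. It stood at 94.8 CPM (7 UMIs) and 46.7 CPM (37 UMIs) in the low-depth cluster 8 and at 37.3 and 26.1 CPM in cluster 5, with 10.9 and 18.2 CPM in hair cell-like and 4.63 and 12.2 CPM in macrophage-like nuclei. Col3a1, the chain of type III collagen of distensible tissues, stood at 639 and 638 CPM in cluster 7, at 531 and 394 CPM in the unnamed cluster 5 and at 442 and 394 CPM in cluster 0, and its lowest levels were 41.2 and 23.8 CPM in cluster 16. Its background was high, at 162 and 114 CPM in macrophage-like nuclei.

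**Figure D2:**
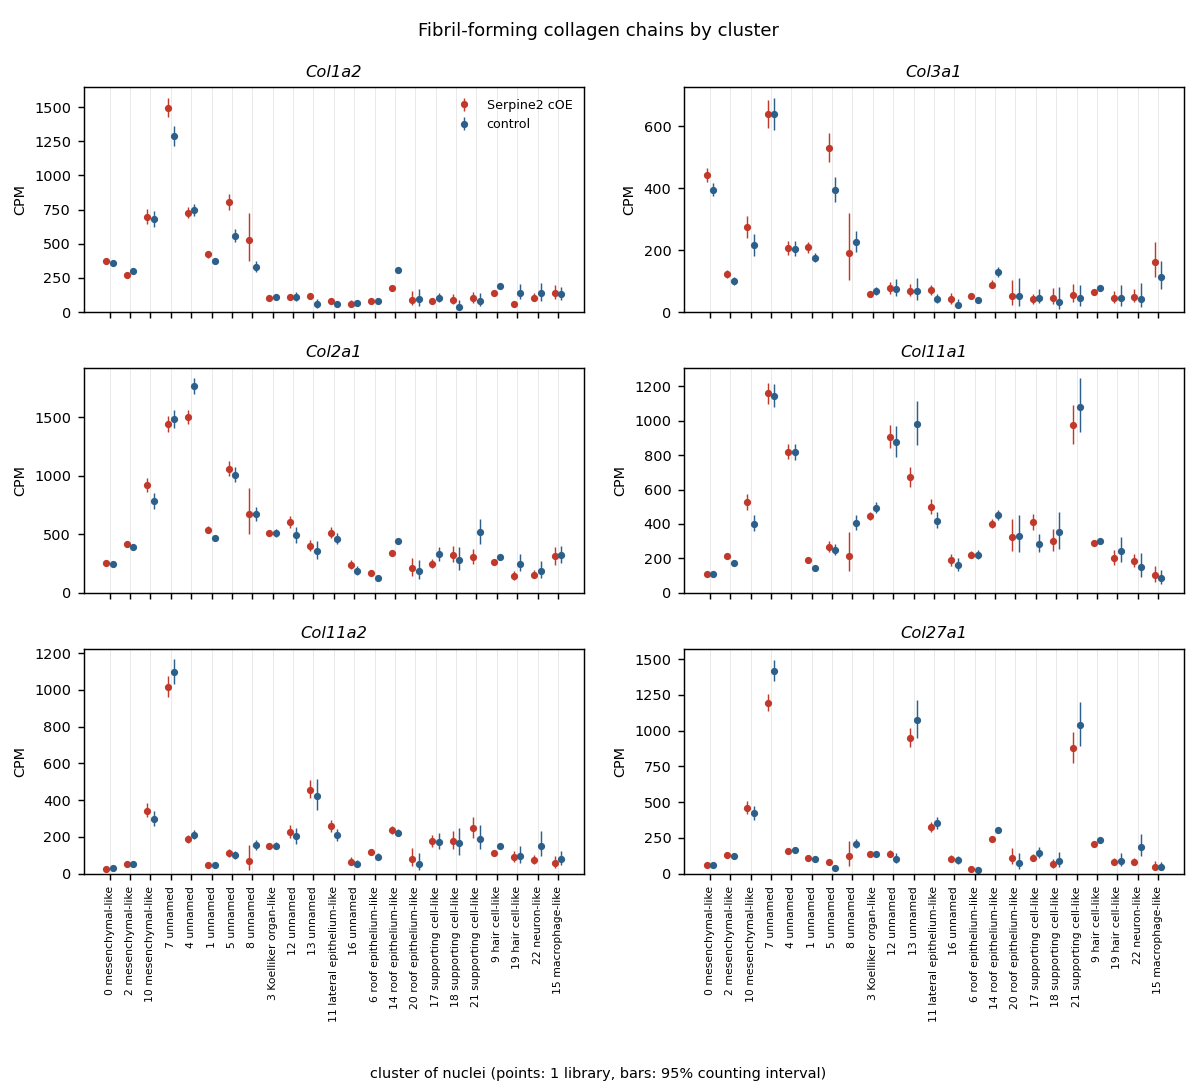
Levels (CPM, with 95% Poisson intervals) of 6 fibril-forming genes in the 23 clusters, as separate points for the cOE and the control library. Col1a2, Col3a1, Col11a1, Col11a2 and Col27a1 were highest in cluster 7 in both libraries, and Col2a1 was highest in cluster 4.

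Col2a1 encodes the single chain of type II collagen, the fibril of cartilage and of the tectorial membrane. It stood at 1498 CPM (2386 UMIs) and 1762 CPM (2513 UMIs) in cluster 4, which had Iyd, Adamtsl3 and Ednra among its leading genes, and at 1441 and 1480 CPM in cluster 7. Supporting cell-like nuclei had 278 and 367 CPM and hair cell-like nuclei 248 and 307 CPM, while macrophage-like nuclei had 310 and 322 CPM. The Col2a1 levels of hair cell-like and supporting cell-like nuclei thus did not lie clearly above the macrophage-like level. The lowest level, 172 and 130 CPM in the roof epithelium-like cluster 6, lay below it. Median depth was 6358 and 7768 UMIs in hair cell-like and 4378 and 4370 UMIs in supporting cell-like nuclei. The part of free RNA in these levels was not tested. Col11a1 and Col11a2 encode 2 of the chains of type XI collagen, which lies inside type II fibrils. Col11a1 stood at 1158.5 and 1145 CPM in cluster 7, at 974.5 and 1082 CPM in the supporting cell-like cluster 21 and at 907 and 876 CPM in cluster 12, and at 102 and 85.5 CPM in macrophage-like nuclei, its lowest levels. Col11a2 stood at 1015 and 1096.5 CPM in cluster 7, at 458 and 425 CPM in cluster 13 and lowest at 27.5 and 31.0 CPM in cluster 0. In cluster 21 Col11a2 stood at 247 and 191 CPM, beside 55.6 and 77.3 CPM in macrophage-like nuclei, and Col2a1 at 303 CPM (244 to 371) and 516 CPM (416 to 633). Both type XI genes thus lay above their background in cluster 21 in both libraries, and Col2a1 did so in the control library. Cluster 12 (led by Kcnq5, P4ha2 and Gabrg3) and cluster 13 (led by Trdn, Rspo2, Otoa and Slit3) stayed unnamed.

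Of the other fibril-forming genes, Col27a1 and Col24a1, whose chains have shorter unbroken repeats (217 and 216), were also highest in cluster 7. Col27a1, linked to cartilage, stood there at 1195 and 1418 CPM, at 951 and 1075 CPM in cluster 13, at 876 and 1037 CPM in cluster 21 and lowest at 30.7 and 26.2 CPM in cluster 6. Col24a1, linked to bone, stood at 507 CPM (interval 468 to 548) and 617 CPM (568 to 669) in cluster 7, at 176 and 270 CPM in cluster 10 and lowest at 6.40 and 1.42 CPM in cluster 6. The chains of type V collagen, which set the diameter of type I fibrils, were not highest together. Col5a2 stood at 359 CPM (326 to 394) and 337 CPM (301 to 376) in cluster 7, and Col5a1 at 64.5 CPM (55.2 to 74.9) and 81.7 CPM (72.0 to 92.4) in the unnamed cluster 1. Col5a3, with few UMIs, reached 4 and 0 UMIs in cluster 13, where its summed level was highest.

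The 3 type IX chains sit on the surface of type II fibrils. Col9a1 stood at 1194.5 and 1119 CPM in cluster 7, at 712 and 620 CPM in the lateral epithelium-like cluster 11 and at 722 and 529 CPM in cluster 10. Col9a2 was highest in cluster 13, at 1078 CPM (848 UMIs) and 892 CPM (214 UMIs), and stood at 813 CPM (760 to 869) and 537 CPM (486 to 592) in cluster 11. Col9a3 was highest in cluster 11, at 874 and 685 CPM, with 687 and 732 CPM in cluster 7 and 606 and 558 CPM in cluster 13. The order of clusters thus differed among the 3 partner chains, although each was above its macrophage-like level in clusters 7, 11 and 13. That level was 273 and 167 CPM for Col9a1, 208 and 171 CPM for Col9a2 and 120 and 118 CPM for Col9a3, and the lowest levels were 124 and 94.8 CPM for Col9a1 in cluster 6, 102 and 137 CPM for Col9a2 in the neuron-like cluster 22 and 73.8 and 58.6 CPM for Col9a3 in cluster 0. Among the remaining fibril-associated genes, Col14a1 stood at 159 CPM (138 to 183) and 249 CPM (218 to 283) in cluster 7, which held 33.5% of its UMIs. Col16a1 stood at 110 and 122 CPM in the same cluster. Col22a1 stood there at 44.1 CPM (54 UMIs) and 19.1 CPM (18 UMIs), and in the supporting cell-like cluster 17, its highest in the control library, at 32.0 CPM (22 UMIs) and 26 CPM (10 UMIs). Col12a1 was highest in cluster 10 (27.0 and 46.4 CPM). Col19a1 had its highest summed level in cluster 22 (9.86 and 21.6 CPM, 3.62% of its UMIs), but the cOE library alone placed it in cluster 8. Summed over both libraries, Col20a1 was highest in the hair cell-like cluster 19 (12.3 and 20.3 CPM), which held 2.43% of its UMIs. Neither library alone placed Col20a1 there: it was highest in cluster 8 in the cOE library and in cluster 13 in the control.

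**Figure D3:**
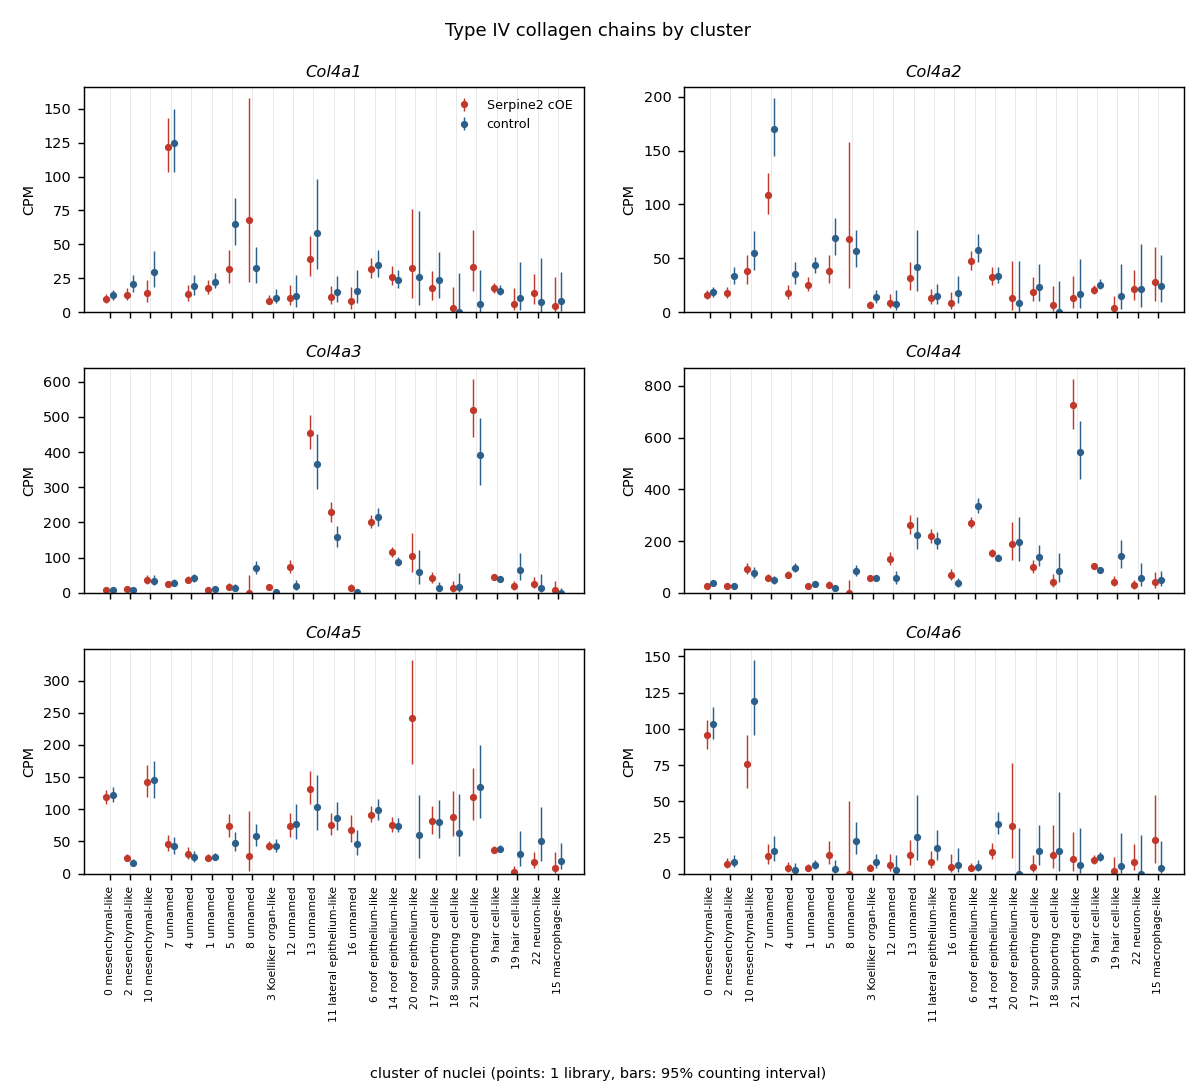
Levels (CPM, with 95% Poisson intervals) of the 6 type IV genes in the 23 clusters, as separate points for the cOE and the control library. Col4a3 and Col4a4 were highest in cluster 21, Col4a1 and Col4a2 in cluster 7.

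The type IV genes were highest in different cell types. Col4a3 stood at 520 CPM (158 UMIs, interval 442 to 608) and 393 CPM (70 UMIs, 306 to 496) in the supporting cell-like cluster 21, which had Sez6l, Trpv6 and Fgfr3, a receptor of Deiters and pillar cells, among its leading genes. It stood at 455 CPM (409 to 505) and 367 CPM (294 to 452) in cluster 13 and at 202 and 214 CPM in the roof epithelium-like cluster 6. Macrophage-like nuclei had 2 and 0 Col4a3 UMIs, its lowest level, and 38.5% and 22.2% of the thinned nuclei of cluster 21 had a UMI. Col4a4, its partner chain, stood at 724 CPM (632 to 827) and 544 CPM (441 to 664) in cluster 21, at 271 and 336 CPM in cluster 6 and at 262 and 225 CPM in cluster 13. Its lowest levels were 30.9 and 19.6 CPM in cluster 5, and macrophage-like nuclei had 41.7 and 48.8 CPM. Both genes were thus highest in the same supporting cell-like cluster in both libraries, far above background.

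Col4a5, whose chain completes that network, did not have its highest level there. It stood at 241 CPM (37 UMIs, interval 170 to 333) and 59.7 CPM (7 UMIs, 24.0 to 123) in the roof epithelium-like cluster 20, which has 48 and 34 nuclei, at 142 and 145 CPM in cluster 10 and at 132 and 104 CPM in cluster 13. The control library placed Col4a5 highest in cluster 10 instead. As log2(CPM + 1) over both libraries, Col4a5 stood at 6.97 in cluster 21, near the 6.98 of cluster 13. The highest such value was 7.35 in cluster 20 and the lowest 3.49 in cluster 19. Col4a6, whose chain pairs with that of Col4a5 in basement membranes of smooth muscle, stood at 95.5 CPM (86.0 to 106) and 104 CPM (93.1 to 115) in cluster 0, which held 53.4% of its UMIs. It stood at 75.5 and 120 CPM in cluster 10, and macrophage-like nuclei had 23.2 and 4.07 CPM.

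The chains of the ubiquitous network were highest in the unnamed cluster 7. No cluster was named as endothelial cells or pericytes. Col4a1 stood at 122 CPM (103 to 143) and 125 CPM (103 to 150) in cluster 7 and at 32.0 and 65.3 CPM in cluster 5, with 4.63 and 8.14 CPM in macrophage-like nuclei. Col4a2 stood at 109 CPM (91 to 129) and 170 CPM (145 to 199) in cluster 7 and at 38.4 and 68.5 CPM in cluster 5, with 27.8 and 24.4 CPM in macrophage-like nuclei. As log2(CPM + 1) over both libraries, Col4a1 stood at 6.96 in cluster 7, 5.63 in cluster 5 and 5.49 in cluster 13. By the same measure Col4a2 stood at 7.09 in cluster 7, 5.88 in cluster 8, 5.76 in cluster 5 and 5.70 in the roof epithelium-like cluster 6. In the supporting cell-like cluster 18, which had Prdm12, Otol1 and Ednrb among its leading genes, Col4a1 had 1 and 0 UMIs and Col4a2 had 2 and 0 UMIs, the lowest levels of both genes.

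Each of these 3 gene pairs lies together on 1 chromosome, on opposite strands. On GRCm39 the start of Col4a1 and that of Col4a2 on chromosome 8 were 317 bases apart and the genes overlapped by 356 bases. Col4a3 and Col4a4 on chromosome 1 started 103 bases apart and overlapped by 159 bases, and Col4a5 and Col4a6 on chromosome X started 1282 bases apart without overlap. Across the 23 clusters, log2(CPM + 1) of Col4a3 and Col4a4 had a Pearson correlation of 0.91, that of Col4a1 and Col4a2 0.82 and that of Col4a5 and Col4a6 0.54, while Col4a1 and Col4a3 had 0.39. Whether reads were counted by strand is not given in the sources used here, and reads from the overlaps may be shared by the partners. These correlations are descriptions over 23 clusters that share 2 libraries, their depth and their free RNA.

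Measured the same way, the correlations of partner chains and of other collagen pairs varied. The correlation was 0.94 for Col1a2 and Col3a1, genes of different collagen types, and 0.57 for Col1a1 and Col1a2, partners of type I. For the type I partners the cOE library alone gave 0.65 and the control 0.34. Col1a1 had 414 and 540 UMIs in all kept nuclei, beside 9837 and 8823 of Col1a2, and the part of its low counts was not tested. Between genes named for different types, the correlation was 0.89 for Col5a2 and Col1a2 and 0.81 for Col2a1 and Col9a1. Col2a1 had 0.58 with Col11a1 and 0.54 with Col11a2. Col11a1 and Col11a2 had 0.86, Col5a1 and Col5a2 0.72 and Col8a1 and Col8a2 0.67. Among type IX chains, Col9a1 and Col9a2 had 0.80, Col9a2 and Col9a3 0.77 and Col9a1 and Col9a3 0.72. Among type VI chains, Col6a1 and Col6a2 had 0.78, Col6a2 and Col6a3 0.65 and Col6a1 and Col6a3 0.50. Col4a5 had 0.53 with Col4a3 and 0.55 with Col4a4. The value of Col8a1 and Col8a2 was 0.35 in the cOE and 0.71 in the control library. The 2 multiplexins had -0.11. Among all genes with at least 200 UMIs, those most like Col2a1 were Kdelr3 (0.88), a receptor that returns chaperones to the endoplasmic reticulum, Zfp469 (0.83) and Col9a1. Those most like Col1a2 were Foxc1 (0.94), Col3a1 and Nid1 (0.93). Those most like Col11a1 were Col11a2, Adamts14 (0.80), which cleaves procollagen, and Col27a1 (0.76). Arhgap28 (0.89) and Bmp5 (0.86) were among the genes most like Col25a1. Col9a3 was most like A930012L18Rik (0.89), Mcc (0.84) and Cdk19 (0.83), and Col9a1 like Col2a1, Col9a2 and Chpf2 (0.79), an enzyme of chondroitin sulfate synthesis.

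The short-chain gene Col8a1, of a network found beneath endothelium and around vessels, stood at 273 and 333 CPM in the mesenchymal cell-like cluster 10, at 276 and 217 CPM in cluster 7 and at 260 and 222 CPM in cluster 6. Col8a2 stood at 51.8 and 57.7 CPM in cluster 10. Col10a1, the collagen of hypertrophic cartilage, had its highest level in cluster 20 from 3 and 0 UMIs. Chains of type VI beaded filaments were highest in the mesenchymal cell-like cluster 0 or the unnamed cluster 5. Col6a1 stood at 65.0 and 66.3 CPM and Col6a2 at 42.6 and 21.8 CPM in cluster 5, a low-depth cluster led by Ramp2, Ndn, Mdk and Igfbp2. Cluster 5 had 5 mesenchymal and 4 supporting cell markers. In the control library Col6a2 was highest in the unnamed cluster 1 instead. Col6a3 stood at 41.6 and 54.8 CPM in cluster 0. Col6a6, an alternative chain of the same filaments, stood at 385 CPM (365 to 405) and 438 CPM (416 to 461) in cluster 0, which held 66.1% of its UMIs, at 88.5 and 110 CPM in cluster 10 and lowest at 5.08 and 4.17 CPM in cluster 13. Its macrophage-like level was 13.9 and 16.3 CPM, so cluster 0 stood far above background in both libraries. Col26a1 stood at 270 and 348 CPM in cluster 0 and at 252 and 292 CPM in cluster 1, and lowest at 11.4 and 16.7 CPM in cluster 13. Col7a1, the anchoring fibril chain below epithelia, stood at 20.6 and 13.9 CPM in cluster 16, led by Trpa1, Syt6 and Car10. Col28a1 had 33 and 50 UMIs in all kept nuclei. Its highest summed level was in cluster 18 (6.57 and 7.81 CPM), which held 3.61% of these UMIs. The cOE library alone placed Col28a1 highest in cluster 8.

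Membrane-spanning collagens are single-pass proteins whose collagen part faces outwards. Col25a1 stood at 997 CPM (957 to 1039) and 1094 CPM (1040 to 1150) in the roof epithelium-like cluster 6, at 869 and 924 CPM in cluster 10 and at 733 and 761 CPM in cluster 7, and lowest at 49.3 and 15.6 CPM in cluster 18. Its macrophage-like level was 102 and 36.6 CPM. Col23a1 stood at 351 and 450 CPM in cluster 0 and at 146 and 194 CPM in cluster 7. Col13a1, a chain known from the neuromuscular junction, stood at 408 CPM (339 to 486) and 422 CPM (317 to 551) in the supporting cell-like cluster 18. It stood at 279 and 380 CPM in cluster 3, which resembled the Koelliker organ and held 36.0% of its UMIs, and at 32.4 and 8.14 CPM in macrophage-like nuclei. Col13a1 was thus the member of this class with its highest level in a supporting cell-like cluster. Col17a1, the hemidesmosome chain, had 106 UMIs in all and its highest summed level in cluster 12 (2.36 and 7.01 CPM). The cOE library alone placed Col17a1 highest in cluster 8.

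The multiplexins lie at the border of basement membranes and release antiangiogenic fragments. Col15a1 stood at 298 and 336 CPM in cluster 0, which held 52.1% of its UMIs, at 222 and 249 CPM in cluster 10 and lowest at 13.8 and 10.7 CPM in the lateral epithelium-like cluster 11. Col18a1 stood at 334 CPM (290 to 382) and 282 CPM (237 to 332) in cluster 16, at 183 and 173 CPM in cluster 12 and at 105 and 102 CPM in cluster 18, with 16.3 and 14.7 CPM in cluster 4 as its lowest. Macrophage-like nuclei had 13.9 and 32.6 CPM of Col18a1. The pair was thus split, with Col15a1 high in mesenchymal cell-like clusters and Col18a1 in others.

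The second question of the design was which genes differ between Serpine2 cOE and control. A gene was counted as higher or lower where its CPM in the 2 libraries differed at least 1.5-fold and both libraries together had at least 50 UMIs in the nuclei compared. Over all kept nuclei, none of the 42 collagen genes was higher in the cOE library and 3 were lower, against 3.94% of all genes measured higher and 4.58% lower. The log2 ratio (cOE over control) had a median of -0.22 over the collagen genes and 0.01 over all genes. Of the 42 collagen genes 28 were below 0, beside 8877 of 18240 genes in all. Counting intervals lay above 0 for 9 and below 0 for 21 collagen genes. Over all 18240 genes they lay above 0 for 4470 and below 0 for 3843. Beside this, the mesenchymal marker list of 21 genes stood at 7808 and 8120 CPM (log2 ratio -0.06) and the Koelliker organ list of 13 genes at 4075 and 3528 CPM (0.21). Whether the makeup of the libraries has a part in these values was addressed in one way, by giving each cluster the same weight in both libraries. That weight was the share of the cluster in the UMIs of both libraries together, and is called equal cluster weights below. The collagen genes then had no gene higher and 1 lower (all genes: 2.93% higher, 3.94% lower), and their median log2 ratio was -0.15.

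**Figure D4:**
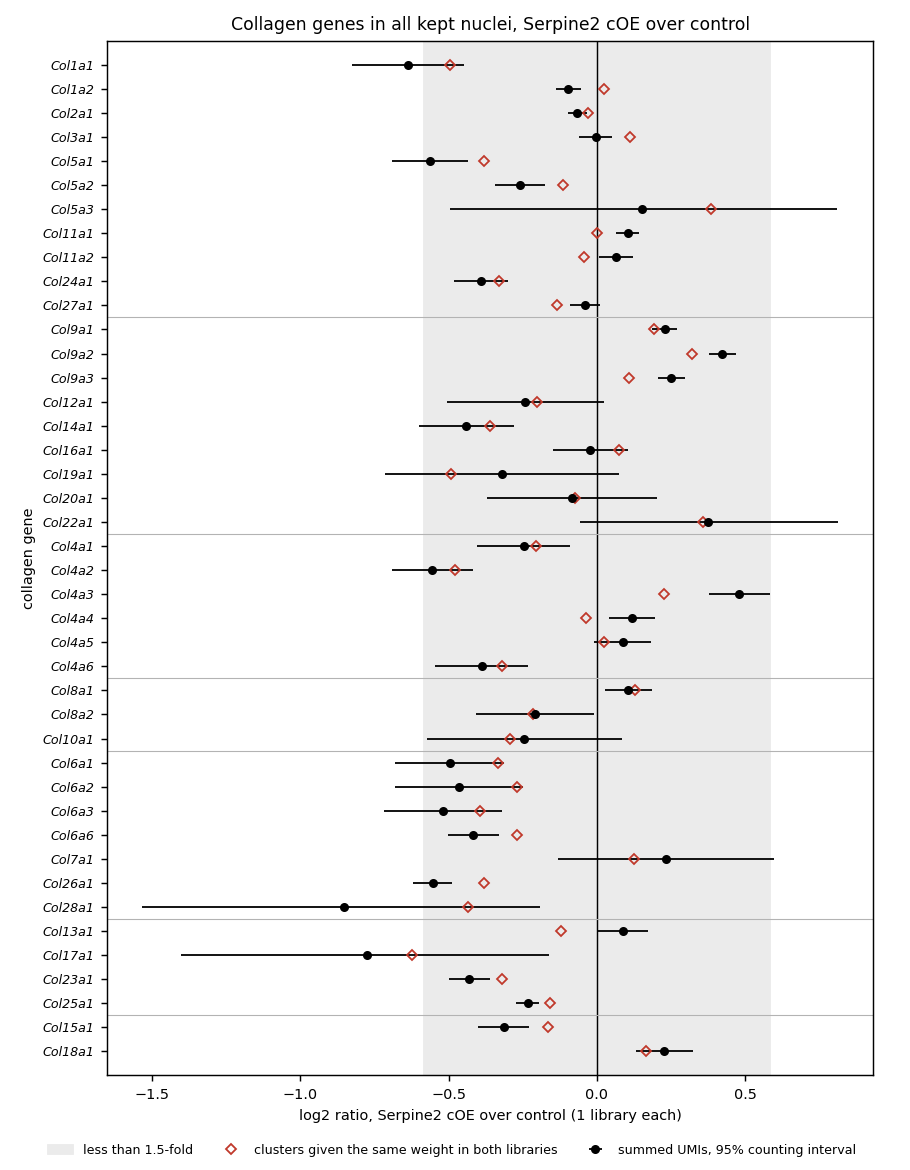
Log2 ratio of CPM (cOE over control) for each of the 42 collagen genes over all kept nuclei. Values are summed counts with 95% counting intervals, and values with each cluster at the same weight in both libraries. Most points lie between -0.58 and 0.58, the 1.5-fold limits, and 28 of the 42 are below 0.

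The 3 lower genes were 2 of very few UMIs and a type I chain. Col28a1 had 33 and 50 UMIs (1.02 and 1.85 CPM, log2 ratio -0.85, interval -1.53 to -0.19). Col17a1 had 39 and 56 UMIs (1.21 and 2.07 CPM, log2 ratio -0.78, interval -1.40 to -0.16), and was the gene that stayed past the limit with equal cluster weights (-0.62). Col1a1 had 414 and 540 UMIs (12.8 and 20.0 CPM, log2 ratio -0.64, interval -0.83 to -0.45). Col1a1 was within the limit with equal cluster weights (-0.50), without the nucleus richest in it in each library (-0.51), with each nucleus weighted equally (-0.44) and in thinned nuclei (-0.29), and Col28a1 was within it with equal cluster weights (-0.44). Its partner Col1a2 stood at 305 and 326 CPM (log2 ratio -0.10, interval -0.14 to -0.06) and Col3a1 at 174 and 175 CPM (0.00, -0.06 to 0.05).

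The genes above 0 included all type IX chains. Col9a2 stood at 313 and 233 CPM (log2 ratio 0.42, interval 0.38 to 0.47), Col9a3 at 308 and 259 CPM (0.25, 0.21 to 0.30) and Col9a1 at 329 and 281 CPM (0.23, 0.19 to 0.27). None reached 1.5-fold. With equal cluster weights the ratios were 0.32, 0.11 and 0.19. Col2a1, their fibril partner, stood at 487 and 510 CPM (-0.07, -0.10 to -0.03).

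**Figure D5:**
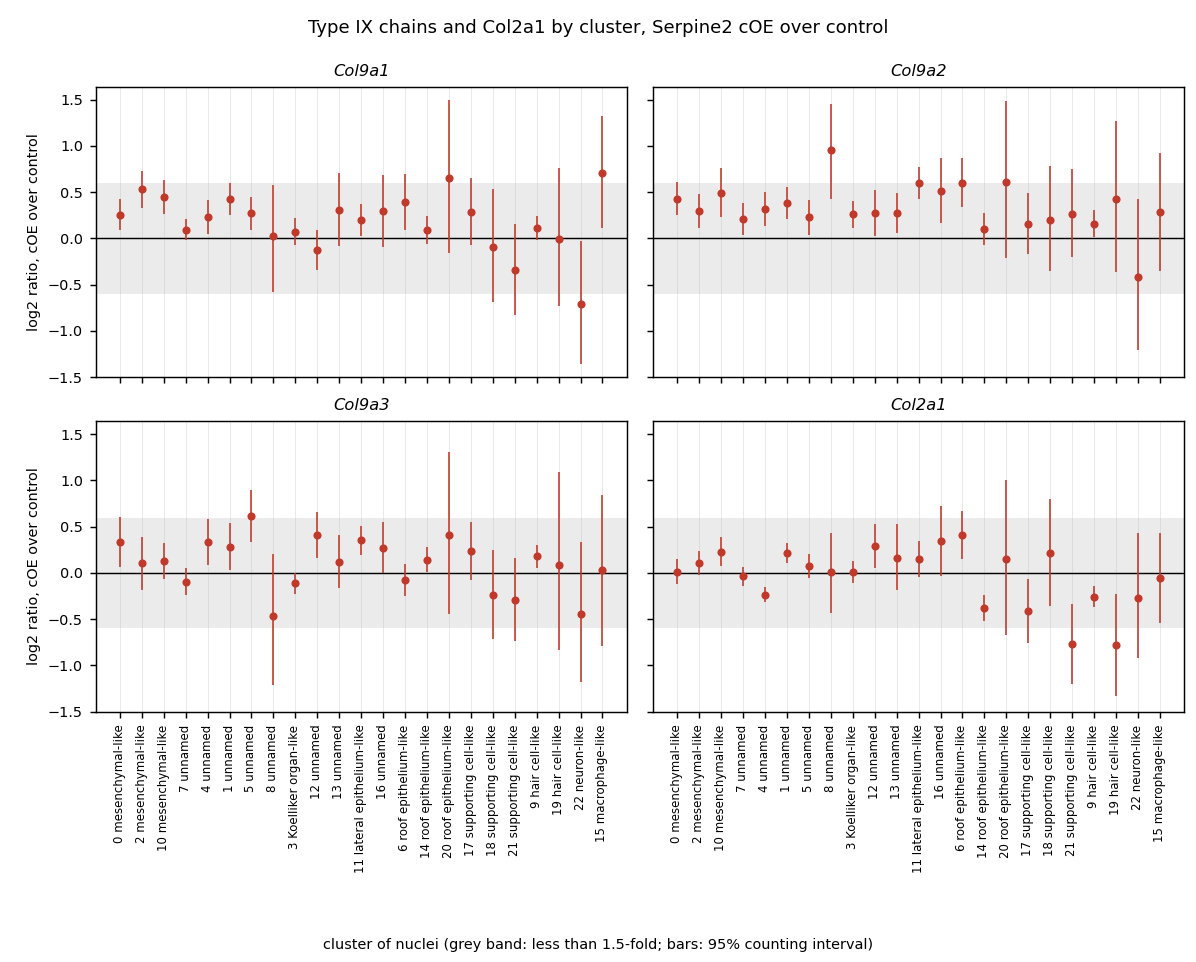
Log2 ratio of CPM (cOE over control), with 95% counting intervals, of the type IX genes and Col2a1 in each of the 23 clusters. Col9a2 lies above 0 in 22 of the 23 clusters, and Col2a1 on both sides of 0.

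Cluster by cluster, Col9a2 was higher in the cOE library in 22 of 23 clusters, with a counting interval above 0 in 15 and a median log2 ratio of 0.29. The largest value, 0.96 (interval 0.43 to 1.46), came from cluster 8, and cluster 22 was the exception (-0.42, -1.20 to 0.42). Col9a1 was higher in 18 of 23 clusters (interval above 0 in 9, median 0.23) and Col9a3 in 16 (interval above 0 in 8, median 0.13). Col2a1 was higher in 14 and lower in 9 clusters (median 0.02), with intervals above 0 in 4 and below 0 in 6. The clusters are no replicates, since all share the 2 libraries and their free RNA. In macrophage-like nuclei the log2 ratio of Col9a2 was 0.29 (45 and 42 UMIs, interval -0.35 to 0.93) and that of Col9a1 was 0.71.

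The type IV genes had ratios on both sides of 0. Over all kept nuclei Col4a3 stood at 65.2 and 46.7 CPM (log2 ratio 0.48, interval 0.38 to 0.58) and at 0.23 with equal cluster weights. Its largest ratios came from clusters far below its highest level. Col4a3 had 58 and 6 UMIs in cluster 3 (17.6 and 3.57 CPM, log2 ratio 2.30, interval 1.09 to 3.81) and 62 and 8 UMIs in cluster 12 (73.1 and 18.7 CPM, 1.97, 0.90 to 3.24). In cluster 21, where it was highest, the log2 ratio was 0.41 (-0.01 to 0.83). Col4a4 stood at 96.1 and 88.6 CPM over all kept nuclei (0.12, 0.04 to 0.19; -0.04 with equal cluster weights) and at 130 and 56.1 CPM in cluster 12 (110 and 24 UMIs, 1.21, 0.56 to 1.91). In cluster 3 the roof epithelium marker list stood at 232 and 134 CPM (0.79) and in cluster 12 the supporting cell list at 738 and 549 CPM (0.43). The part of these marker levels in the Col4a3 and Col4a4 values was not tested. Col4a2 stood at 25.1 and 36.9 CPM over all kept nuclei (-0.55, -0.69 to -0.42; -0.48 with equal cluster weights) and was lower in 10 of the 11 clusters with enough UMIs, with a median log2 ratio of -0.54. Col4a1 stood at 20.8 and 24.7 CPM (-0.25, -0.40 to -0.09). Col4a5 had a log2 ratio of 0.09 (-0.01 to 0.18) and Col4a6 of -0.39 (-0.54 to -0.23).

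Of 34 collagen genes with enough UMIs in at least 4 clusters, 7 were below 0 in every such cluster and none was above 0 in every one, against 3.56% and 4.47% of all genes. The shares over all genes were not matched for the number of clusters, and the 7 genes had enough UMIs in 4 to 9. The 7 were Col5a1 and Col6a6 (9 of 9 clusters), Col6a1 and Col8a2 (7 of 7), Col14a1 (5 of 5) and Col4a6 and Col6a3 (4 of 4). Others lay on both sides: Col3a1 was higher in 12 of 16 clusters, Col16a1 in 8 of 12 and Col1a2 in 11 of 20, while Col26a1 was lower in 11 of 12 and Col25a1 in 15 of 17. Over all kept nuclei Col5a1 stood at 28.0 and 41.3 CPM (log2 ratio -0.56, interval -0.69 to -0.43) and Col26a1 at 102 and 150.0 CPM (-0.55, -0.62 to -0.49). With equal cluster weights both were at -0.38. Cluster 7, the richest in collagen genes, showed values in both directions. There Col1a1 had a log2 ratio of -1.01 (interval -1.34 to -0.68), Col12a1 of -0.98, Col4a2 of -0.65 (-0.99 to -0.31) and Col14a1 of -0.64, while Col22a1 was at 1.21 (0.42 to 2.07) from 54 and 18 UMIs. In the same cluster the osteoblast or chondrocyte list of 15 genes stood at 2853 and 2137 CPM (0.42), the supporting cell list at 488 and 336 CPM (0.54), the roof epithelium list at 310 and 182 CPM (0.77), the skeletal muscle list at 114 and 198 CPM (-0.80), the mesenchymal list at 7851 and 7605 CPM (0.05) and the mitochondrial genes at 4498 and 3360 CPM (0.42). Their part in the collagen values was not tested.

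In mesenchymal cell-like nuclei (3112 and 2640), none of 36 collagen genes with enough UMIs was higher and 3 were lower, against 3.75% and 3.3% of all genes. The median log2 ratio was -0.12, and 0.02 over all genes. Col1a1 had 52 and 76 UMIs (6.86 and 11.7 CPM, log2 ratio -0.77, interval -1.31 to -0.24) and Col4a1 86 and 111 UMIs (11.3 and 17.1 CPM, -0.59, -1.01 to -0.17). Col10a1 had 29 and 38 UMIs (-0.61), with an interval that included 0. Beside these, the mesenchymal list stood at 9806 and 10136 CPM (-0.05), the mitochondrial genes at 4675 and 3269 CPM (0.52), the osteoblast or chondrocyte list at 209.6 and 138 CPM (0.61), the supporting cell list at 415 and 298 CPM (0.48) and the macrophage list at 66.9 and 95.6 CPM (-0.52), and their part was not tested.

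In supporting cell-like nuclei (247 and 129), the class in which the Lgr5 driver is known to act, none of 18 collagen genes was higher and 1 was lower, against 6.01% and 4.73% of all genes. The median log2 ratio was 0.03, and 0.02 over all genes. Col23a1 had 60 and 49 UMIs (46.3 and 70.9 CPM, log2 ratio -0.61, interval -1.18 to -0.04). Within the 1.5-fold limit, Col4a3 stood at 147 and 111 CPM (0.40, 0.01 to 0.80), Col2a1 at 278 and 367 CPM (-0.40, -0.64 to -0.17) and Col11a1 at 517 and 503 CPM. Beside these, the supporting cell list of 16 genes stood at 2319 and 2482 CPM (-0.10), the roof epithelium list at 226 and 301 CPM (-0.41) and the mitochondrial genes at 2802 and 1908 CPM (0.55). The macrophage list stood at 55.5 and 101 CPM (-0.87) and the skeletal muscle list at 77.9 and 113 CPM (-0.53). The erythroid list stood at 137 and 81.0 CPM (0.76). The part of all these lists in the collagen values was not tested.

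In hair cell-like nuclei (463 and 376), none of 35 collagen genes was higher and 7 were lower, against 4.09% and 5.46% of all genes. The median log2 ratio was -0.30, and 0.01 over all genes, and counting intervals lay below 0 for 16 collagen genes and above 0 for 1. Over all 13266 genes measured they lay below 0 for 1684 and above 0 for 1892. Col26a1 stood at 46.7 CPM (227 UMIs) and 87.2 CPM (412 UMIs), a log2 ratio of -0.90 (interval -1.14 to -0.66), Col15a1 at 17.5 and 32.2 CPM (-0.88, -1.28 to -0.49) and Col5a1 at 9.88 and 17.8 CPM (-0.85, -1.39 to -0.32). Col5a2 stood at 26.1 and 43.8 CPM (-0.74, -1.08 to -0.42), Col1a1 at 10.9 and 18.2 CPM (-0.74, -1.26 to -0.23) and Col24a1 at 39.1 and 61.4 CPM (-0.65, -0.92 to -0.38). The seventh, Col6a1, had 20 and 34 UMIs (-0.81) and an interval that included 0. All 7 had their highest level in a mesenchymal cell-like or unnamed cluster, not in hair cell-like nuclei. Lists of other cell types had ratios on both sides of 0. In the same nuclei the mesenchymal list of 21 genes, all detected in both libraries, stood at 5494 and 6007 CPM (-0.13), the skeletal muscle list of 7 genes (6 detected) at 371 and 535 CPM (-0.53), the macrophage list of 11 genes (11 detected) at 120 and 187 CPM (-0.64) and the endothelial list of 10 genes at 159 and 227 CPM (-0.52), while the hair cell list of 18 genes stood at 7038 and 5655 CPM (0.32). The root and spindle cell list stood at 509 and 342 CPM (0.57), the supporting cell list at 542 and 446 CPM (0.28), the erythroid list at 147 and 125 CPM (0.24), the roof epithelium list at 900.4 and 834 CPM (0.11) and the mitochondrial genes at 2603 and 2073 CPM (0.33). Epyc, 1 of the 7 genes of the root and spindle cell list, alone stood at 240 and 96.9 CPM. The median depth was 6358 and 7768 UMIs. The part of these markers and of depth in the collagen values was not tested. In the deep roof epithelium-like cluster 14 (8617 and 9892 UMIs), Col26a1 stood at 44.6 and 125 CPM (-1.49), Col4a6 had a log2 ratio of -1.22 and Col15a1 of -1.16, and the skeletal muscle list stood at 314 and 638 CPM (-1.02) and the mesenchymal list at 6043 and 7789 CPM (-0.37) beside them, again not tested.

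Genes that act with collagens were read from 5 lists. Among all genes measured, 3.94% were higher and 4.58% lower over all kept nuclei, and 4.09% and 5.46% in hair cell-like nuclei. In mesenchymal nuclei the shares were 3.75% and 3.3%, and in supporting cell-like nuclei 6.01% and 4.73%. Of 23 genes of collagen maturation in the endoplasmic reticulum (prolyl and lysyl hydroxylases, chaperones), none was past 1.5-fold over all kept nuclei in either direction, and none in hair cell-like (22 measured), mesenchymal (21) or supporting cell-like nuclei (13). Serpinh1, the collagen chaperone, stood at 139 and 140 CPM (log2 ratio -0.01, interval -0.08 to 0.05). Of 19 basement membrane partners (laminins, nidogens, perlecan), none was past the limit over all kept nuclei or, of 16, in mesenchymal nuclei. In hair cell-like nuclei 3 of 16 were lower, Lama4 (-0.94), Nid1 (-0.90) and Hspg2 (-0.68), and in supporting cell-like nuclei 1 of 9 was higher, Frem1 (0.63). Of 9 collagen receptors none was past the limit over all kept nuclei. In hair cell-like nuclei 3 of 8 were lower, Itga1 (-0.81), Ddr2 (-0.80) and Mrc2 (-0.75), and in mesenchymal nuclei 1 of 8 was higher (Itga10, 0.60) and 1 lower (Itga2, -0.67).

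Of 17 fibril-binding genes over all kept nuclei, 2 were higher and none lower, both of them small leucine-rich proteoglycans, which bind collagen fibrils. Epyc stood at 297 and 157 CPM (log2 ratio 0.92, interval 0.87 to 0.97) and Lum at 218 and 117 CPM (0.91, 0.84 to 0.97), whereas Dcn (0.47), Bgn (-0.02), Prelp (-0.13) and Ogn (-0.17) of the same family were within the limit. Both were also higher in hair cell-like nuclei, Epyc at 240 and 96.9 CPM (1.31) and Lum at 120 and 52.5 CPM (1.20), and in mesenchymal nuclei (0.85 and 0.99). In supporting cell-like nuclei Epyc stood at 148 and 150.4 CPM (-0.02, -0.37 to 0.34). Epyc is also in the marker lists of the Koelliker organ and of root and spindle cells, and Lum in the mesenchymal one. In hair cell-like nuclei 2 of 12 were higher and 2 lower, Fn1 (-0.83) and Bgn (-0.60). In mesenchymal nuclei 4 of 14 were higher, and in supporting cell-like nuclei 2 of 6, Fn1 (0.83) and Lum (0.62). Among all genes, 4.09%, 3.75% and 6.01% were higher in hair cell-like, mesenchymal and supporting cell-like nuclei. Of 13 genes of propeptide cleavage and cross-linking, 1 was lower over all kept nuclei, Tll2, a relative of the procollagen C-proteinase, at 15.5 and 28.9 CPM (-0.90, -1.07 to -0.74). In hair cell-like nuclei 4 of 10 were lower, Tll2 (-1.17), Tll1 (-1.01), Bmp1 (-0.74) and Loxl1 (-0.70), in supporting cell-like nuclei 1 of 4, Adamts14 (-0.64), and in mesenchymal nuclei none of 13. Among all genes, 5.46%, 4.73% and 3.3% were lower in hair cell-like, supporting cell-like and mesenchymal nuclei. The list medians over all kept nuclei lay between -0.22 (receptors) and -0.04 (maturation), beside 0.01 for all genes.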

How the data were processed

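Nuclei of 2 pooled cochlear libraries were sequenced with a 10x 3′ kit. The deposited matrices hold raw UMI counts per gene and nucleus. Per the file headers, Cell Ranger 8.0.1 wrote them. The series text names GRCm39, the submitters' processing notes name mm10 and STAR, and STAR's version is not given in the sources used here. Counts were used as deposited. Of 33696 gene identifiers, 33185, and all 42 collagen genes, were found in GENCODE M39.

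Nuclei with at least 500 genes and at most 5% mitochondrial UMIs were kept. The automatic Scrublet threshold marked no doublets, so the highest scores, 0.8% of nuclei per 1000 barcodes, were removed (1040 cOE and 703 control). Scanpy 1.11.5 under Python 3.11.15 clustered both libraries together (3000 variable genes, 50 components, 15 neighbours, Leiden resolution 1), leaving out the collagen genes, Serpine2 and Lgr5. A cluster was called by a cell type where at least 3 markers of 1 list, and clearly more than of any other, were detected in it and raised, and its leading genes did not go against the name. UMIs were summed per library and cluster or class and given as CPM with exact 95% Poisson intervals. Ratios have exact conditional intervals. With 1 library per group there was no test, and both intervals cover counting error only, not the spread between animals. The calculation was tested on simulated data. Shares of nuclei were compared after thinning to 1000 UMIs.

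Every collagen gene is named with its highest cluster. Full values are given for partner chains and for up to 4 genes with most UMIs of each class, and between libraries for genes past 1.5-fold. The members, marker lists and partner lists were chosen with earlier results of these data known. Alternatives were other filters, weights, folds, TMM factors (edgeR 4.0.16, R 4.3.3) and clusterings.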

Additional observations from a re-analysis of the deposited data

Results flagged for a closer look

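For 8 collagen genes the log2 ratio (cOE over control) was past the 1.5-fold limit, with a counting interval that left out 0, in opposite directions in different clusters. These were 22.2% of the 36 collagen genes with enough UMIs in at least 2 clusters, against 5.01% of 12609 genes in all. The differences between clusters were not tested, clusters share the same 2 libraries, and many clusters were looked at. Cluster 8, which held 64 cOE and 730 control nuclei, and cluster 22, with 46 and 10 nuclei, rest on few nuclei of 1 library.

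Col4a3 was higher in cluster 3 (2.30) and cluster 12 (1.97). In cluster 8 it had 0 and 56 UMIs, at least 1.74-fold lower against a floor of 3 UMIs in the library (log2 ratio -0.80 at that bound). Col4a4 was higher in cluster 12 (1.21) and cluster 16 (0.85), lower in cluster 0 (-0.63), and had 0 and 66 UMIs in cluster 8, at least 2.05-fold lower against the same floor (-1.04 at that bound).

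Col1a2 was higher in cluster 13 (0.99) and cluster 8 (0.69) and lower in cluster 14 (-0.82) and cluster 19 (-1.37). Col23a1 was higher in cluster 8 (0.96) and lower in clusters 10 (-0.84), 14 (-0.93) and 17 (-0.84). Col27a1 was higher in cluster 5 (0.99) and lower in cluster 22 (-1.21). Col6a2 was higher in cluster 5 (0.97) and lower in clusters 1 (-0.60) and 2 (-0.82). Col16a1 was higher in cluster 11 (0.89) and lower in cluster 14 (-0.72). Col9a1 was higher in the macrophage-like cluster 15 (0.71) and lower in cluster 22 (-0.71).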

How the results depend on the processing

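The count of collagen genes lower in the cOE library over all kept nuclei (3) was 0 at a 2-fold limit and 1 with equal cluster weights, and lay between 2 and 4 under the other settings, which were TMM factors, a minimum of 20 UMIs, other nucleus filters, no doublet removal, thinning to 1000 UMIs, equal weight of nuclei, omission of the richest nucleus and omission of cluster 8 (chosen after seeing the data). The higher count was 0 under all of them. Thinning left 39 of the 42 genes with enough UMIs; with no minimum it put 5 genes past the limit lower and 1 higher, Col5a3 (0.74). In mesenchymal nuclei the lower count (3) was 0 at 2-fold and 2 to 4 otherwise, and the higher count (0) was 1 with a minimum of 20 UMIs and 0 otherwise. The count of genes at least 4-fold higher in 1 cluster (23) was 6 at 8-fold, and 20 to 23 with thinning, other filters, Leiden resolutions of 0.5 and 2 or the collagen genes kept in clustering. Of the 42 ratios over all kept nuclei, 6 turned sign with equal cluster weights, 4 with thinning, 4 with equal weight of nuclei and at most 1 under each other setting. No replicate could be left out, and no paired analysis was possible because each group has 1 library. Depth limits the low genes: Col5a3, Col28a1 and Col17a1 had at most 106 UMIs each, and supporting cell-like nuclei had enough UMIs for 18 of the 42 genes.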
